A study of Homo sapiens with 4 samples.

Results

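The genes described here are 10 targets and effectors of the unfolded protein response: the chaperones HSPA5, HSP90B1, CALR and PDIA4, the co-chaperones DNAJB9, DNAJC3 and SDF2L1, the transcription factor XBP1, and the degradation factors HERPUD1 and EDEM1. They were read on 3′ expression arrays in U87MG, a long-established line of human glioma cells. The rule took every probe set whose platform annotation gives 1 gene symbol, that symbol being a member, which yields 35 of the 49293 probe sets on the array and covers 10 of 18132 genes. Cells carrying the miR-490 overexpression vector PC-490 gave 2 arrays, and cells carrying its control vector PCDNA gave 2 arrays. In both groups RNA was isolated 48 h after transfection and 100 ng of total RNA was labelled. Both groups were plasmid-transfected cells of a single line, so a response to transfection that they share cannot be seen, and neither the share of cells that took up plasmid nor the level of miR-490 was analysed here.

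The endoplasmic reticulum folds secreted and membrane proteins. When unfolded protein accumulates in its lumen, the membrane sensors IRE1, ATF6 and PERK are activated. IRE1 splices the XBP1 messenger RNA so that it encodes an active transcription factor, ATF6 is cut by Golgi proteases into another, and both raise the transcription of chaperones and of genes that send misfolded proteins to degradation. PERK acts through translation and the factor ATF4. Secretory and tumour cells commonly express lumenal chaperones at a high level, and HSPA5, the chaperone also called BiP, is widely used as a readout of the pathway.

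The promoters of 6 of these genes carry DNA elements through which the pathway is known to act, and these are shown to give the sequences behind the group's name. Genes of the ATF6 and XBP1 arms are known partly through these elements, so their presence is a description of the chosen genes and no independent finding. Windows of 300 bases, from 250 before to 50 after each annotated start, were taken from RefSeq (GRCh38.p14) and searched on both strands. All 10 genes had at least 1 window. The endoplasmic reticulum stress response element (ERSE), written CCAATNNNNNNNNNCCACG, was present in windows of 4 of the 10 genes, against 0.0769% of all 35116 windows. Its shorter relative ERSE-II, written ATTGGNCCACG, was present in 2 more, against 0.0541% of all windows. The CCACG ends of these elements are shared, so they are related motifs, and no member holds both. The core of the unfolded protein response element, TGACGTGG, was found in windows of 0 of the 10 genes and in 0.729% of all windows. Capitals below mark the fixed letters of each element, read on the strand on which it matches.
HSPA5 ERSE, 66 to 48 bases before the start, chr9:125241391-125241409, minus strand: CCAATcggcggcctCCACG
HSP90B1 ERSE, 194 to 176 bases before the start, chr12:103930216-103930234, plus strand: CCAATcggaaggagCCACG
HSP90B1 ERSE, 89 to 71 bases before the start, chr12:103930321-103930339, minus strand: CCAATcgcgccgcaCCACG
CALR ERSE, 225 to 207 bases before the start, chr19:12938384-12938402, minus strand: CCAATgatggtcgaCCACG
XBP1 ERSE, 52 to 34 bases before the start, chr22:28800603-28800621, minus strand: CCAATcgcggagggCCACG
HERPUD1 ERSE-II, 117 to 107 bases before the start, chr16:56932025-56932035, plus strand: ATTGGgCCACG
SDF2L1 ERSE-II, 188 to 178 bases before the start, chr22:21642114-21642124, minus strand: ATTGGtCCACG

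The HSPA5 element is shown in its setting, because that gene is the usual readout of the pathway. The 100 bases before its start (chr9:125241344-125241443, minus strand) hold the element in capitals.
HSPA5 upstream: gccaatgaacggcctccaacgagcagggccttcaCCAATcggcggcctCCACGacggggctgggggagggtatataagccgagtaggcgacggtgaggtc
PDIA4, DNAJB9, DNAJC3 and EDEM1 had no exact match to these letters in their windows.

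The microRNA of the vector gives 2 mature strands from 1 hairpin on chromosome 7, shown with the seed (bases 2 to 8) in capitals because the seed directs pairing with target messenger RNAs. The vector insert itself was not used here, and neither were target sites in the members' messenger RNAs. The seeds of the strands differ.
hsa-miR-490-3p, chr7:136903242-136903263, plus strand: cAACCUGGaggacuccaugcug
hsa-miR-490-5p, chr7:136903205-136903224, plus strand: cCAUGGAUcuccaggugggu

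The arrays were closely alike. Array medians were 5.16 and 5.17 for miR-490, against 5.15 and 5.16 for control (log2). Across probe sets the correlation was 0.9979 within the miR-490 pair, 0.9975 within the control pair and 0.9976 to 0.9979 between groups. Genes usual in mesenchymal glioma lines, such as VIM, CD44 and FN1, were above the median level in 6 of 7 cases, with NES below it. Markers of other cells were mostly dim: 1 of 5 leukocyte markers was above that level (CD68), as were 1 of 6 epithelial (CLDN4), 2 of 5 endothelial (KDR and VWF) and 2 of 6 neural markers (GAD1 and SNAP25). Over the brightest sets, the median level of the leukocyte markers was 3.18 and 3.30 in miR-490 arrays, against 3.34 and 3.45 in control arrays. Over all 15 leukocyte sets 7 were higher with miR-490 and 7 lower, with a median log2 difference of 0.0. The endothelial medians went the other way, at 4.13 and 4.26 in miR-490 arrays, against 3.97 and 4.06 in control arrays. The part of such markers in any result was not tested. No label says that the replicates came from separate cultures, and the p-values therefore measure only the spread between these arrays, some or all of which can be technical.

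The comparison asks whether the pathway's targets differ when miR-490 is overexpressed. No member rose or fell past the threshold. RNA came from whole cultures, in which fewer responding cells and a smaller change per cell cannot be told apart. With limma and Benjamini-Hochberg adjustment over all 49293 probe sets, 0 of the 35 member probe sets had an adjusted p under 0.05, the smallest being 0.900, and over the whole array the share called was 0%. At an unadjusted p under 0.05, 1 member probe set was lower and 0 were higher, while over all probe sets 2.48% were lower and 2.66% higher. The median log2 difference, miR-490 minus control, was -0.005 over the member probe sets and 0.000 over all probe sets. Differences ran from -0.18, a set of DNAJB9, to 0.10, a set of DNAJC3. Mean values were higher with miR-490 in 14 member sets, lower in 19 and equal in 2. The groups did not overlap in 2 sets on the higher side and 5 on the lower side, that is 5.71% and 14.3% of the members, against 15.6% and 15.6% of all probe sets.

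The intervals describe the size of the differences between these arrays. They rest on 2 arrays per group whose spread can be technical, so they set no limit on the effect of miR-490 in other cultures. Sets near the floor of the array, where differences are compressed, are included. For each of the 35 sets, the unadjusted 95% interval of the log2 difference lay inside a 1.5-fold change in either direction, with bounds from -0.54 to 0.55 over the sets. For 26 of the 35 sets it lay inside a 1.3-fold change. An exact two-sided permutation test of 2 arrays against 2 cannot go below p = 0.333, so it was not used.

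**Figure D1:**
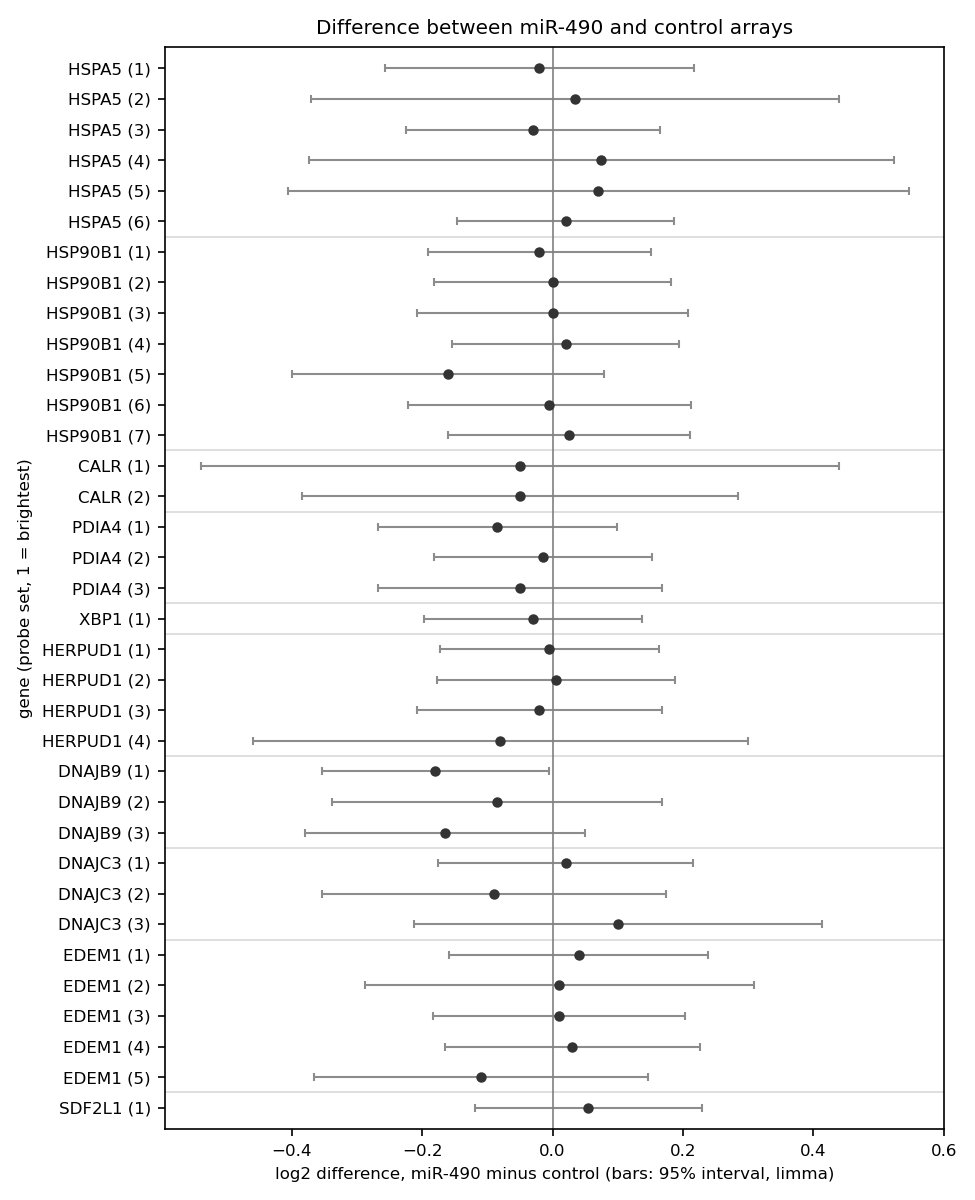
Log2 difference, miR-490 minus control, for each of the 35 member probe sets (rows, grouped by gene and ordered from the brightest set of the gene), with the 95% interval from limma as bars. Points lie between -0.18 and 0.10, and the 4 widest intervals belong to HSPA5 and CALR.

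HSPA5, the Hsp70-type chaperone of the lumen, was measured by 6 probe sets. Its brightest set read 12.29 and 12.29 in miR-490 arrays, against 12.41 and 12.21 in control arrays. The miR-490 arrays thus lay between the control arrays, and the log2 difference was -0.02 (95% interval -0.26 to 0.22; adjusted p = 0.996, limma). Another set of the gene, 11725933_at, read 10.60 and 10.76 in miR-490 arrays, against 10.86 and 10.36 in control arrays. Here too both miR-490 values fell inside the control range, which spanned 1.41-fold. Of the 6 sets, 5 had their highest value in control replicate 1. The exception, 11725931_at, read 7.83 and 7.84 in miR-490 arrays, against 7.82 and 7.81 in control arrays, so the control gap that reached 0.50 in a brighter set was 0.01 in this one. The 3 sets with control gaps of 0.40, 0.46 and 0.50 were designed on the same target sequence.

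In 5 of the 6 HSPA5 sets the difference was above 0 without control replicate 1 and below 0 without control replicate 2, and in 11725931_at it kept its sign, at 0.025 and 0.015. Set 11725933_at had a log2 difference of 0.07 with all arrays, 0.32 without control replicate 1 and -0.18 without control replicate 2. The brightest set gave 0.08 without control replicate 1 and -0.12 without control replicate 2. Without miR-490 replicate 2, 3 sets that were above 0 with all arrays, the ones designed on the same target, were at -0.05, -0.01 and -0.01. None of these passed the adjusted threshold.

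CALR encodes calreticulin, a lectin chaperone of glycoproteins that also stores calcium. Its brighter set read 8.38 and 8.42 in miR-490 arrays, against 8.72 and 8.18 in control arrays. The control arrays differed 1.45-fold, the widest control gap of any member set, while the miR-490 arrays differed by 0.04 on the log2 scale. The other CALR set had the same arrangement, with 7.44 and 7.56 in miR-490 arrays, against 7.71 and 7.39 in control arrays. Both sets gave a log2 difference of -0.05 (95% intervals -0.54 to 0.44 and -0.38 to 0.28). Without control replicate 1 these became 0.22 and 0.11, and without control replicate 2 -0.32 and -0.21.

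HSP90B1, the Hsp90-type chaperone of the lumen, had 7 probe sets. The brightest read 13.63 and 13.64 in miR-490 arrays, against 13.68 and 13.63 in control arrays, a log2 difference of -0.02 (95% interval -0.19 to 0.15). Set 11754606_a_at was the only HSP90B1 set whose groups did not overlap, with 10.84 and 10.91 in miR-490 arrays, against 11.13 and 10.94 in control arrays. Its log2 difference of -0.16 did not pass (adjusted p = 0.906, limma), and it was -0.065 without control replicate 1, -0.255 without control replicate 2, -0.125 without miR-490 replicate 1 and -0.195 without miR-490 replicate 2. The other 6 sets lay between -0.02 and 0.025. Some of its sets have names ending in _s_at or _x_at, which on this platform mark probes that can match other transcripts, and copies of a gene cannot be told apart in them.

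PDIA4, a protein disulphide isomerase, had lower means with miR-490 in all 3 of its sets, by small amounts. The brightest read 11.52 and 11.59 in miR-490 arrays, against 11.67 and 11.61 in control arrays. The groups did not overlap in this set, but the difference of -0.085 had an interval of -0.27 to 0.098 (adjusted p = 0.936, limma). The other sets gave -0.015 and -0.05, with overlap of the groups.

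**Figure D2:**
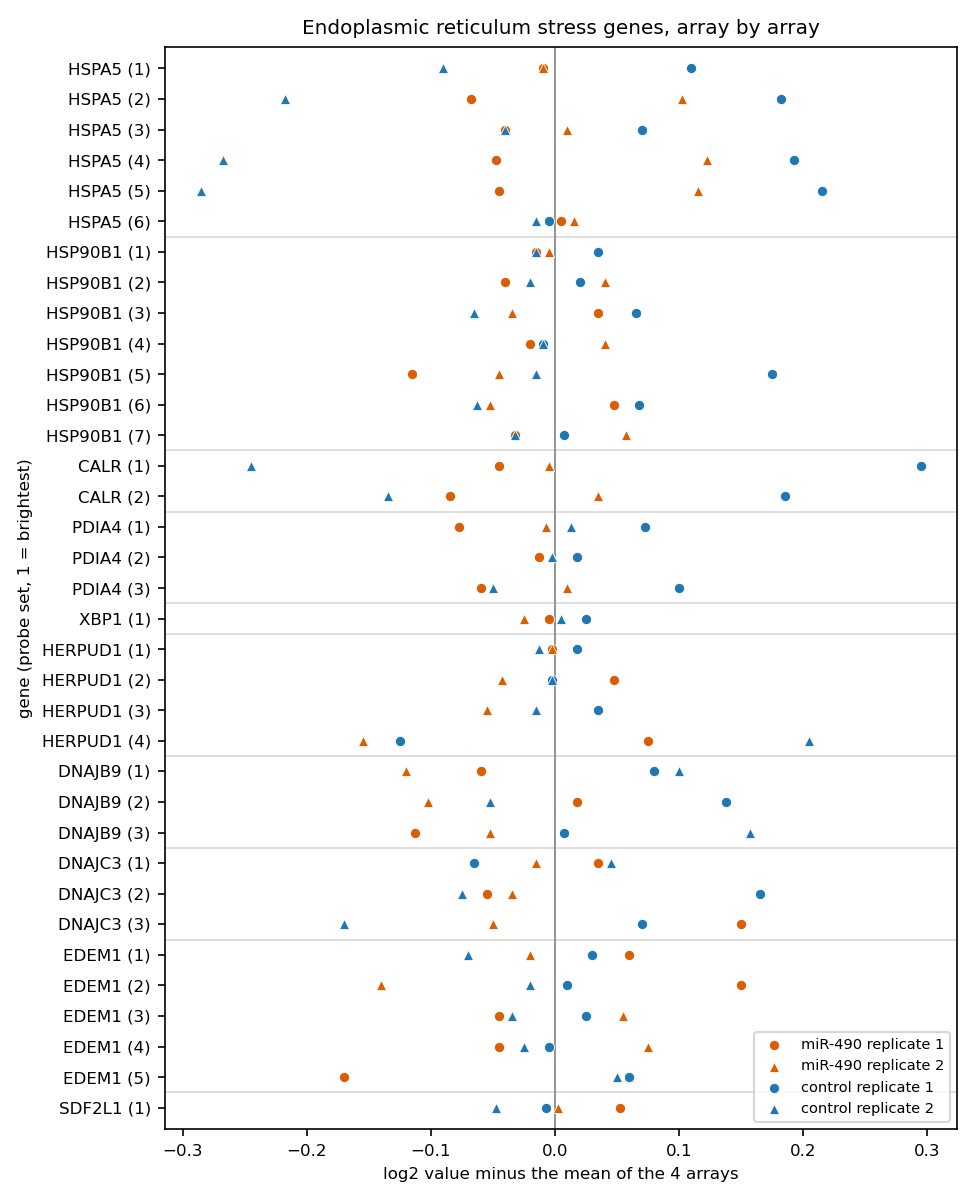
Log2 value of each array minus the mean of the 4 arrays, for each of the 35 member probe sets (rows; orange, miR-490; blue, control; circles, replicate 1; triangles, replicate 2). In HSPA5 and CALR the control arrays stand at opposite ends with the miR-490 arrays between them in most sets, and in the brightest DNAJB9 set both miR-490 arrays lie below both control arrays.

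Over the 18 sets of the 4 chaperones the median gap was 0.07 within the miR-490 pair and 0.13 within the control pair (log2). HSPA5 and CALR had median gaps of 0.105 and 0.08 within the miR-490 pair and 0.30 and 0.43 within the control pair, whereas in HSP90B1 the medians were 0.07 within the miR-490 pair and 0.05 within the control pair. Over all 35 member sets, control replicate 1 was above the other 3 arrays in 18, against 24.6% of all probe sets, or 29.7% of probe sets above the median level. Control replicate 1 was highest and control replicate 2 lowest in 10 member sets (28.6%), against 7.87% of all probe sets and 9.79% of those above the median level. In 8 of those 10 the gene was HSPA5, HSP90B1 or CALR, and sets of 1 gene are not independent readings. The control arrays were farther apart than the group means in 25 of the 35 sets (71.4%), against 61.1% of all probe sets. Over the 60 sets of other lumenal folding genes, control replicate 1 was highest in 30, and over the 44 sets of cytosolic and mitochondrial chaperones in 28, so the tilt of that array was also present outside the lumenal genes. Why the control arrays differed was not tested.

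The co-chaperones hand clients to HSPA5 and regulate its cycle. DNAJB9, a J-domain protein that in mammalian cells also holds IRE1 inactive, held the lowest difference of any member. Its brightest set read 9.21 and 9.15 in miR-490 arrays, against 9.35 and 9.37 in control arrays. The gap between the groups was 0.14 at its narrowest point, wider than the gap within either pair. The log2 difference was -0.18 (95% interval -0.35 to -0.0056), or 0.883 times the control level, with an unadjusted p of 0.0453 and an adjusted p of 0.900 (limma), so it did not pass. It was the only member set with an unadjusted p under 0.05 (limma). In alternatives that keep all arrays, 0 to 2 member sets were under 0.05. There were 0 with quantile normalization, with the replicate number as a block and with the mean of sets per gene. In the last of these the DNAJB9 difference was -0.1433. There were also 0 without sets ending in _s_at or _x_at, which leaves out every DNAJB9 set. The difference of the brightest DNAJB9 set stayed between -0.21 and -0.15 when any array was left out. Groups that do not overlap always keep their sign in that check, so it is no separate support.

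The other DNAJB9 sets were lower in mean as well. Set 11730731_s_at read 7.51 and 7.39 in miR-490 arrays, against 7.63 and 7.44 in control arrays, with overlap. Its difference of -0.085 was 0.01 without control replicate 1, -0.18 without control replicate 2, -0.145 without miR-490 replicate 1 and -0.025 without miR-490 replicate 2. The dim set read 2.19 and 2.25 in miR-490 arrays, against 2.31 and 2.46 in control arrays, near the floor of the array, where differences are compressed. All 3 sets of this gene have names ending in _s_at or _x_at, so none is free of possible matches to other transcripts.

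DNAJC3, a lumenal J-domain protein known as an inhibitor of PERK, showed no common direction among its 3 sets. The brightest read 8.03 and 7.98 in miR-490 arrays, against 7.93 and 8.04 in control arrays, a difference of 0.02. The others gave -0.09 and 0.10, and in each of the 3 the control arrays were farther apart than the group means. SDF2L1, a lumenal protein found in complexes with HSPA5 and J-domain proteins, read 9.19 and 9.14 in miR-490 arrays, against 9.13 and 9.09 in control arrays. Its single set was higher without overlap, by 0.01 at the narrowest point, and the difference of 0.055 (95% interval -0.12 to 0.23) did not pass (adjusted p = 0.964, limma).

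XBP1, the transcription factor made active by IRE1, varied little between arrays. Its single set read 9.16 and 9.14 in miR-490 arrays, against 9.19 and 9.17 in control arrays. The groups did not overlap, by a margin of 0.01, and the difference was -0.03 (95% interval -0.20 to 0.14; adjusted p = 0.993, limma). This value covers XBP1 messenger RNA as the probe set reads it, and its splicing was not analysed here.

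The groups overlapped in all 9 sets of the 2 degradation genes. Over all probe sets 15.6% were higher and 15.6% lower without overlap. Sets of 1 gene are not independent readings, so the count says little about these genes. HERPUD1, a membrane protein that helps assemble the degradation complex, read 9.10 and 9.10 in miR-490 arrays, against 9.12 and 9.09 in control arrays in its brightest set, a difference of -0.005. Its other bright sets gave 0.005 and -0.02, while a dim set near 2.5 gave -0.08. EDEM1, which directs misfolded glycoproteins to degradation, read 9.69 and 9.61 in miR-490 arrays, against 9.66 and 9.56 in control arrays, a difference of 0.04 (95% interval -0.16 to 0.24). Over its 5 sets the differences ran from -0.11 to 0.04, with 4 above 0.

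Genes with and without an exact match to an element in their windows gave these values side by side. Elements that differ from the letters searched, or that lie outside the windows, were not looked for. The 6 genes with an ERSE or ERSE-II had a median difference of -0.02 over their brightest sets (range -0.05 to 0.055), and 5 of the 6 were below 0. The 4 genes without an exact match had a median of -0.0325 (range -0.18 to 0.04), with 2 below 0. Over all their probe sets the median was -0.005 for the genes with an element (21 sets) and -0.0325 for those without (14 sets). The -0.18 was that of DNAJB9, and a dimmer set of HSP90B1, which holds an ERSE, was at -0.16. Whether an element goes with the size of a difference was not tested.

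The rest of the pathway was read from lists chosen by function, with 1 probe set per gene, the brightest. No gene of any list passed over all probe sets (adjusted p = 0.900 for the smallest, limma), and 0 of the 250 probe sets of these lists were called. The median over all genes was 0.005 on the log2 scale, with 47.3% of genes lower in mean, and over all probe sets it was 0.000. Of 18 other lumenal folding genes, 11 had lower and 7 higher means, with a median of -0.015. Over all 60 probe sets of these genes 44 were lower and 15 higher, with a median of -0.03. ERO1B, an oxidase that supplies disulphide bonds, read 5.0 and 4.91 in miR-490 arrays, against 5.23 and 5.16 in control arrays (difference -0.24, unadjusted p = 0.0242). ERP44, which retains oxidases, differed by -0.115 and HYOU1, a lumenal Hsp110-type chaperone, by -0.09.

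The degradation list had 8 higher and 7 lower means among 16 genes, with a median of 0.005, and over all 56 probe sets 31 higher and 22 lower, with a median of 0.01. The ubiquitin-conjugating enzymes UBE2G2 and UBE2J1 differed by 0.135 and -0.12. SELENOS, a selenoprotein of the degradation complex, differed by -0.115, and its other set did not have the same sign. Translocation genes had 5 higher and 8 lower means among 14, with a median of -0.0175, and over all 48 probe sets 19 higher and 27 lower, with a median of -0.02. SEC63, which couples HSPA5 to the translocon, differed by -0.145, and SSR2 and SSR3, subunits of the translocon-associated complex, by 0.065 and -0.07.

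Among 9 sensors, proteases and related factors the median was -0.035, with 3 higher and 6 lower, and over all 24 probe sets it was -0.0225, with 9 higher and 14 lower. ERN1, which encodes IRE1, was dim, at 3.48 and 3.46 in miR-490 arrays, against 3.31 and 3.37 in control arrays. Its other set did not have the same sign. EIF2AK3, which encodes PERK, differed by -0.125 and CREB3, a membrane-bound transcription factor, by 0.125. The PERK and ATF4 arm held the widest spread, with a median of -0.07 over 8 genes and 2 of them higher. Over all 18 of its probe sets 7 were higher and 11 lower, with a median of -0.0225. ATF3, a stress transcription factor, differed by 0.39 (unadjusted p = 0.00719, limma), and 4 of its 6 other sets had the same sign. TRIB3, a pseudokinase induced by ATF4, differed by -0.235 (unadjusted p = 0.0316, limma) and ATF4 itself by -0.13. Cytosolic and mitochondrial chaperones had 3 higher and 8 lower means among 12, with a median of -0.0225, and over all 44 probe sets 9 higher and 32 lower, with a median of -0.0275. HSPA9, the mitochondrial Hsp70, differed by -0.105, while HSPH1 and HSPA8 of the cytosol differed by -0.055 and -0.05. TXNDC5, SEC61G and HSPA1A were listed but not analysed here.

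**Figure D3:**
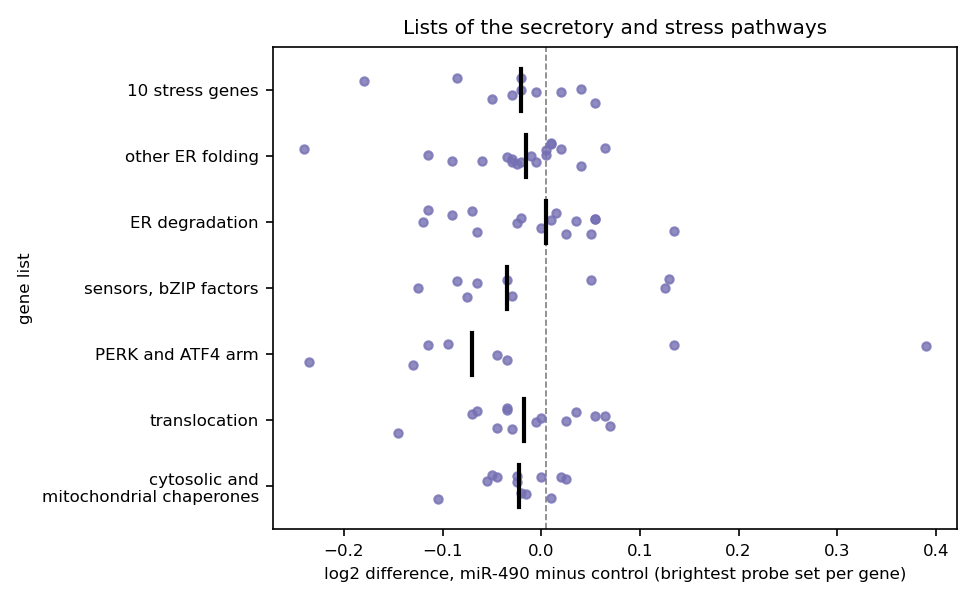
Log2 difference, miR-490 minus control, of each gene's brightest probe set (points), by list (rows), with the list's median as a black bar and the median over all genes, 0.005, as a dashed line. The 10 stress genes and the folding, degradation, translocation and chaperone lists centre between -0.0225 and 0.005, and the PERK and ATF4 arm spreads from -0.235 to 0.39.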

How the data were processed

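The authors deposited log2 values, 1 per probe set and array, made by RMA according to the submitters' processing notes. This method subtracts background, equalises the distributions of the arrays and combines the probes of a set, which hides any shift common to most transcripts. The software behind it is not given in the sources used here. Groups and replicate numbers came from the titles.

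Of 49293 probe sets, 44988 have 1 gene symbol, 1832 several and 2473 none, and 44961 of the first matched RefSeq by Entrez ID. All 49293 were fitted with limma 3.58.1 under R 4.3.3, using lmFit and eBayes with no block. There were 2 residual and 2.73 prior degrees of freedom. Tests were two-sided, and p-values were adjusted by the Benjamini-Hochberg method at a threshold of 0.05. The fit was run on simulated data with known changes, as a check on the estimated sizes only. How many changes of a given size it would call is not reported here. Level means the mean over the 4 arrays, and the median level is its median over all probe sets. Precision is limited by the number of arrays, with a median standard error of the log2 difference of 0.0842 over all probe sets and 0.0759 over the members. Scan dates and detection calls were not used here, and no batch was tested.

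The members and lists were chosen with earlier results of these data known. All 10 members were named, and of each list the 3 genes with the smallest p. Lists were described by counts and medians. Alternatives were quantile normalization, centring on medians, an intensity trend, that trend plus a robust prior, bright probe sets, the brightest set or the mean of sets per gene, single-symbol sets, the replicate number as a block, each array left out and, added after seeing the data, leaving out sets ending in _s_at or _x_at. Promoter and microRNA sequences are RefSeq's (GRCh38.p14). Figures were drawn with matplotlib 3.10.9.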

Additional observations from a re-analysis of the deposited data

How the results depend on the processing

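In every alternative run, 0 probe sets were called (limma) over the whole array, among the members and in the pathway lists. The smallest adjusted p over the array was 0.335 with an intensity trend and a robust prior and 0.643 for a member, without control replicate 2. At an unadjusted p under 0.05 the array had 2537 probe sets in the reported fit, and with 1 array left out from 1679 (without miR-490 replicate 2) to 3048 (without control replicate 2). The members had 0 to 3 in the alternatives. The member median, -0.005 as reported, ranged from -0.045 without control replicate 2 to 0.025 without control replicate 1, where the SD between replicates was 0.0309. Where 1 array is left out, its partner is assumed to vary as much as the arrays of the other group. In the alternatives that keep all arrays it lay between -0.0225 and 0.0075. Of 140 values of member sets with an array left out, 35 had the opposite sign to the reported one, and of 261 others 5 did, with 0 past the threshold. In 8 of 35 sets the sign was the same whichever array was left out. These include the 2 sets that were higher and the 5 that were lower without overlap, whose sign cannot change in this check. With the replicate number as a block, 0 members passed, the member median was -0.005, and the array had 1936 sets at an unadjusted p under 0.05; same-numbered arrays' deviations correlated at -0.0844 across probe sets, and the labels do not say that a number pairs arrays.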

Other observations

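The stress elements also occur among other lumenal folding genes, which were picked out here by sequence after their values had been seen. Of 17 such genes with a promoter window, ERO1B, PDIA6, CANX and CRELD2 hold an ERSE, and HYOU1 holds an ERSE-II, whereas 0 of 13 cytosolic and mitochondrial chaperone genes with a window hold either. PDIA6, a disulphide isomerase, read 11.02 and 11.04 in miR-490 arrays, against 11.03 and 11.02 in control arrays. CANX, the membrane-bound partner of calreticulin, read 12.04 and 12.02 in miR-490 arrays, against 12.02 and 12.03 in control arrays. CRELD2, a lumenal folding factor, read 10.42 and 10.39 in miR-490 arrays, against 10.38 and 10.41 in control arrays. In these 3 genes the groups overlapped and all arrays lay within 0.04 of each other in the brightest set. Of the other sets, 0 of 2 for PDIA6 and 3 of 8 for CANX had the sign of the brightest. HYOU1 read 9.10 and 9.23 in miR-490 arrays, against 9.23 and 9.28 in control arrays, with overlap. Its difference was -0.09, and 7 of its 8 other sets had the same sign. ERO1B, below the median level, was lower without overlap and did not pass the adjusted threshold.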
